A study of Caenorhabditis elegans with 6 samples.

Results

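The cytosolic ribosomal protein genes of C. elegans were examined in whole worms grown at 15°C or 25°C. They were taken as the rows of the expression table whose gene symbol begins with rpl- or rps- followed by a digit, which gave 72 of 16391 rows, 43 for the large subunit (rpl) and 29 for the small subunit (rps). Both groups were wild-type worms of the N2 laboratory strain, fed E. coli OP50, and collected as L4 larvae, with 3 libraries from 15°C-cultivated and 3 from 25°C-cultivated animals and no other treatment. By the study's methods, parents were moved from 20°C as L4 larvae and their progeny developed at either temperature, and the worms at 15°C were started earlier so that both reached the L4 stage, while the sample records give synchronized L1 larvae as the start. Nothing in the sources used here says that the libraries of a group came from separate cultures, so the p-values below measure the spread between these libraries.

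Each ribosome holds a small subunit, which decodes the messenger RNA, and a large subunit, which joins the amino acids and lets the chain out through a tunnel. Every subunit carries a single copy of nearly all of its proteins, and making them is among the largest costs of a growing cell. C. elegans larvae grow quickly, and the synthesis of ribosomes in them is tied to feeding and to nutrient signals.

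The values are FPKM, the fragments of a transcript scaled to its length and to the mapped fragments of the library. The members were 32.0%, 33.1% and 32.0% of the summed FPKM of the 3 libraries at 15°C and 29.5%, 30.6% and 29.3% at 25°C. Their 72 symbols were all found in the Ensembl annotation of WBcel235, to which all coordinates below refer, and 6 further genes of that annotation that meet the rule (rpl-15, rpl-20, rpl-41.1, rpl-41.2, rps-4 and rps-20) were not analysed here. RefSeq gave another symbol for 16 of the 71 members matched by position, and for rpl-24.2 that symbol is rsl-24D1, whose counterpart in yeast assembles the large subunit and leaves before the ribosome is finished. All 72 members passed the filter of a mean of at least 1 FPKM and none was listed at 0 in a library. Levels per length ran from a mean of 5.37 FPKM for rpl-37 to 279219 FPKM for rpl-39, and 68 of the 72 lay between 1000 and 50000 FPKM.

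The libraries differed in total and in other markers. The FPKM of a library summed to 2865856 to 3313082 at 15°C and 2663992 to 2776526 at 25°C, and the single genes rpl-39 and hpo-18 each held 8.06% to 10.8% of a sum. Replicate 2 at 15°C gave the highest value of the 6 libraries in 65 of the 72 members, and replicate 1 at 25°C the lowest in 57. Germline markers summed to 1072 to 1551 FPKM at 15°C and 431 to 749 FPKM at 25°C, with 9 of 9 lower, and vitellogenin genes to 2760 to 4626 FPKM and 1568 to 1910 FPKM, with 5 of 5 lower. Major sperm protein genes summed to 37711 to 53899 FPKM against 31955 to 34883 FPKM, with 12 of 29 lower. Epidermal genes summed to 77.6 to 100.2 FPKM against 268 to 333 FPKM, with 3 of 7 higher and 1 lower. The epidermal list was split, since without overlap between the groups 3 genes lay above and 3 below at 25°C. Their mean levels ran from 1.01 to 149 FPKM with a median of 1.84 FPKM, so the sum does not describe a typical gene of the list. Intestinal markers summed to 5683 to 7978 FPKM against 5653 to 5937 FPKM, body wall muscle markers to 3312 to 3928 FPKM against 2582 to 3186 FPKM, and neuronal markers to 517 to 649 FPKM against 632 to 658 FPKM. No marker on these lists was at 0 in all libraries.

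Ribosomal protein transcripts were lower in 25°C-cultivated worms in both subunits. The median over the members was 7214, 8886 and 7238 FPKM in the libraries at 15°C and 5164, 6160.3 and 5572 FPKM in those at 25°C, so that the groups did not overlap. The median log2 fold change of the 72 was -0.45, a change of -26.6%, beside -0.03 for all 12996 genes tested. Testing used limma on log2(FPKM + 0.5), with p-values adjusted over all genes tested, and fold changes below are on that scale. At an adjusted p under 0.05, 46 members fell (63.9%) and 0 rose, where 21.3% of all tested genes fell and 18.2% rose. The mean FPKM of these 46 fell by between 19.3% and 42.5%. At an unadjusted p under 0.05 the members were 57 lower and 1 higher, rpl-42, beside 26.9% and 22.9% of all tested genes. In whole worms, fewer cells of a kind and less RNA in each cell cannot be told apart.

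In 59 members every library at 25°C was below every library at 15°C, which held for 28.7% of all tested genes. The reverse order was seen in 1 member, rpl-42, and in 25.9% of all tested genes, and the other 12 overlapped. The log2 fold change was below 0 in 68 members (94.4%) and above 0 in 4 (rpl-42, rpl-29, rps-29 and rps-28), beside 51.8% and 48.2% of all tested genes. None of the 72 reached the study's thresholds of a change beyond 2-fold and an adjusted p under 0.01 in either direction, which 6.96% of all tested genes did upward and 5.59% downward. A test by limma's treat against a 2-fold change also gave 0 members in both directions, and the single member beyond 2-fold at an unadjusted p under 0.05 was rpl-37, which was lower.

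**Figure D1:**
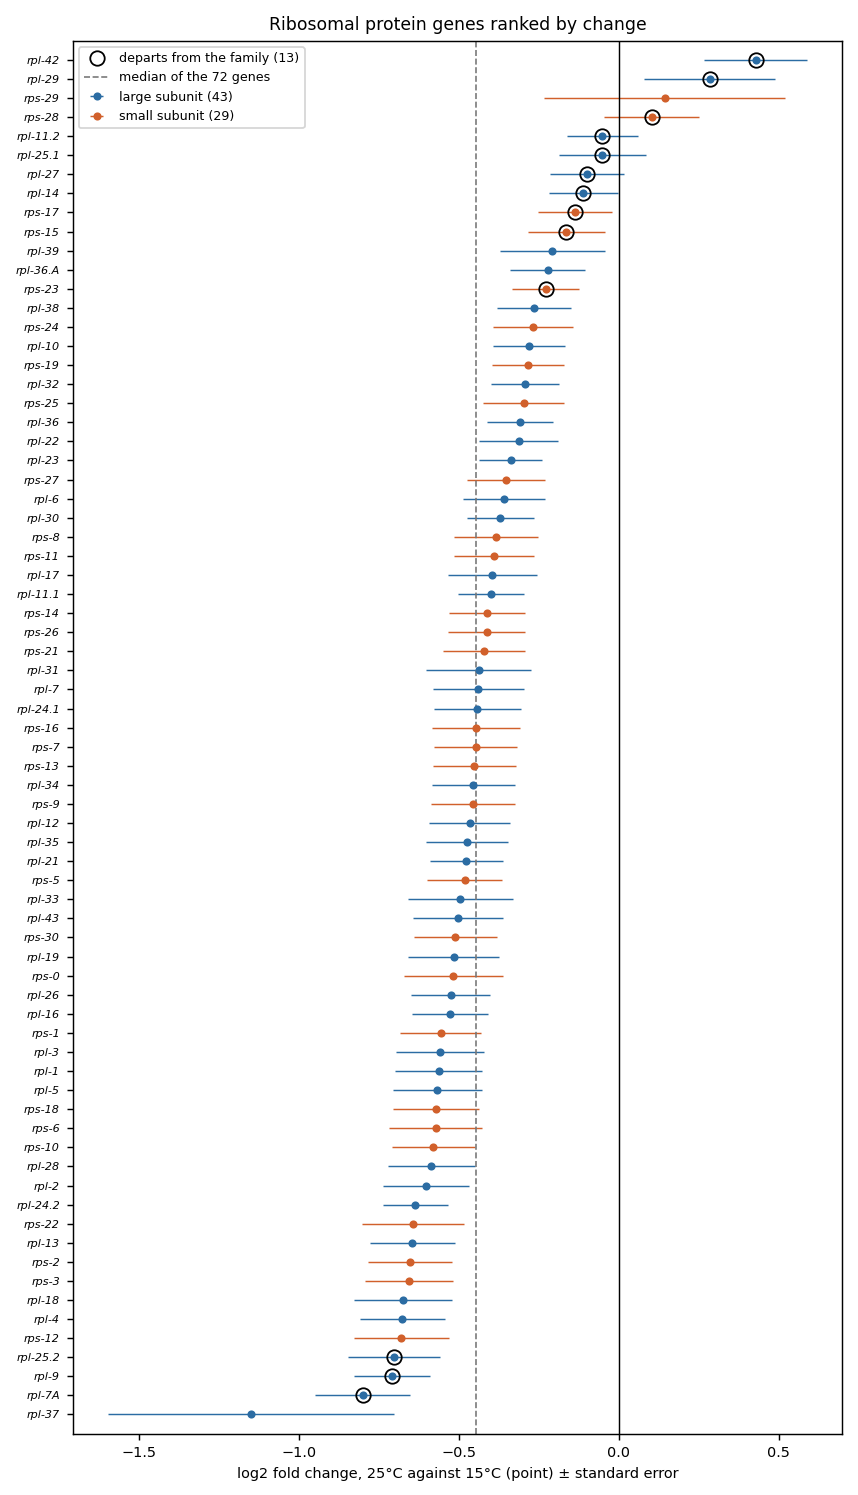
The 72 genes are ranked from top to bottom by their log2 fold change at 25°C against 15°C (points, with bars for 1 standard error from limma, 3 libraries a group), blue for the large and orange for the small subunit. The dashed line marks the median of -0.45 and black circles mark the 13 genes that departed from it in the test relative to the family. In 6 of these (rpl-11.2, rpl-14, rpl-25.1, rpl-27, rps-15 and rps-17) the point is left of 0 as deposited and right of 0 when libraries are rescaled to TPM or to equal sums.

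The count of falling members depended on single libraries and on how the libraries were scaled. It was 30 without replicate 2 at 15°C, 15 without replicate 1 at 25°C and 12 without replicate 3 at 25°C, while the median log2 fold change stayed between -0.51 and -0.34 whichever library was left out. Of all tested genes, 1676 to 2639 fell when 1 library was left out, beside 2774 with all libraries. Whether, and how far, the members' share of falling genes exceeded that of all genes thus also depended on the library left out. With 12 of 72 members falling, their share was not clearly above that of all genes. The family median was below 0 under every scaling tried. Rescaling to TPM moved the median of all tested genes from -0.03 to 0.13 and that of the members to -0.26, and 20 members then fell and 1 rose (rpl-42), while of all tested genes 3338 rose and 1613 fell in place of 2364 and 2774. Germline and yolk markers, and 12 of 29 sperm genes (limma, adjusted p under 0.05), fell together with the members, and 24 of the 29 were below 0. The sum of the body wall muscle markers was also lower in every library at 25°C. Of these 7 muscle genes 6 were below 0 and 1 passed the test. The part of all these genes in the difference was not tested. Within the 15°C group the library with the highest ribosomal protein median, replicate 2, had the lowest germline sum, and within the 25°C group replicate 2 was the highest in both.

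**Figure D2:**
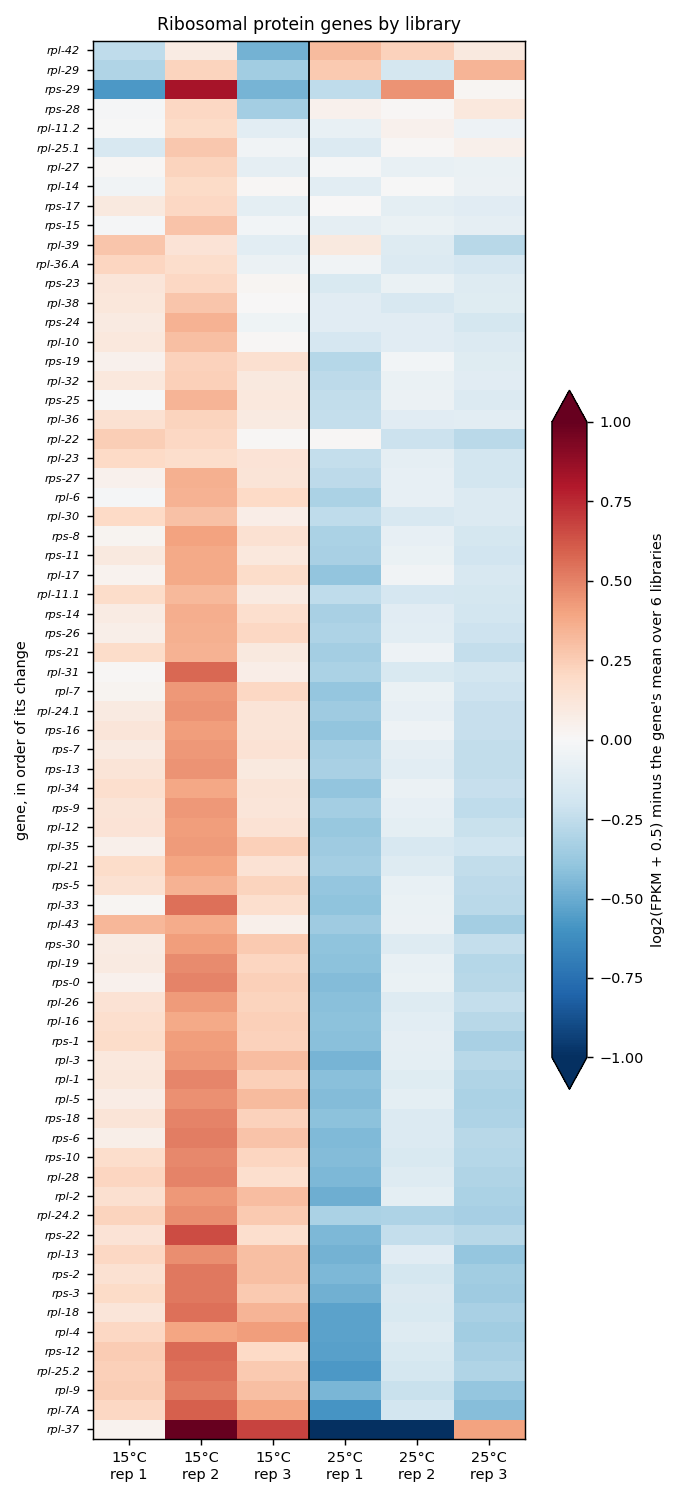
Each row is a ribosomal protein gene, in the order of its change, and each column a library, with replicates 1 to 3 at 15°C left of the black line and at 25°C right of it. Colour gives log2(FPKM + 0.5) minus the gene's mean over the 6 libraries, red for higher and blue for lower, clipped at 1 in either direction. Replicate 2 at 15°C is the reddest column, highest of all 6 libraries in 65 genes, and replicate 1 at 25°C the bluest, lowest in 57.

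The median change was close in both subunits, and a difference between them was not tested. Of the 43 genes of the large subunit 27 fell (62.8%), with a median log2 fold change of -0.45, and of the 29 genes of the small subunit 19 fell (65.5%), with a median of -0.45. As a sum, the large subunit without rpl-39 was 380840.3, 443527 and 372411 FPKM in the 15°C libraries and 305694, 325771 and 318746 FPKM in the 25°C libraries, which is 20.6% lower. The small subunit summed to 282032, 350278 and 286181 FPKM in the 15°C libraries and 218224, 255236 and 233247 FPKM in the 25°C libraries, which is 23.1% lower. Neither pair of groups overlapped. The summed FPKM of all genes was itself 12.3% lower at 25°C, also without overlap. The ratio of these large to small sums was 1.31 ± 0.042 at 15°C and 1.35 ± 0.064 at 25°C (SD, n = 3), a difference smaller than the spread, and the groups overlapped. The share of all members in the summed FPKM was 32.4% ± 0.674 at 15°C and 29.8% ± 0.724 at 25°C (SD, n = 3), a difference of -2.54 percentage points. Without rpl-39 in the members' sum the shares were 22.7% ± 1.39 and 20.3% ± 1.28 (SD, n = 3), and the groups overlapped. With rpl-39 and hpo-18 also taken out of the library sums, the shares were 27.9% ± 1.16 and 24.8% ± 1.07 (SD, n = 3). The groups then did not overlap.

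**Figure D3:**
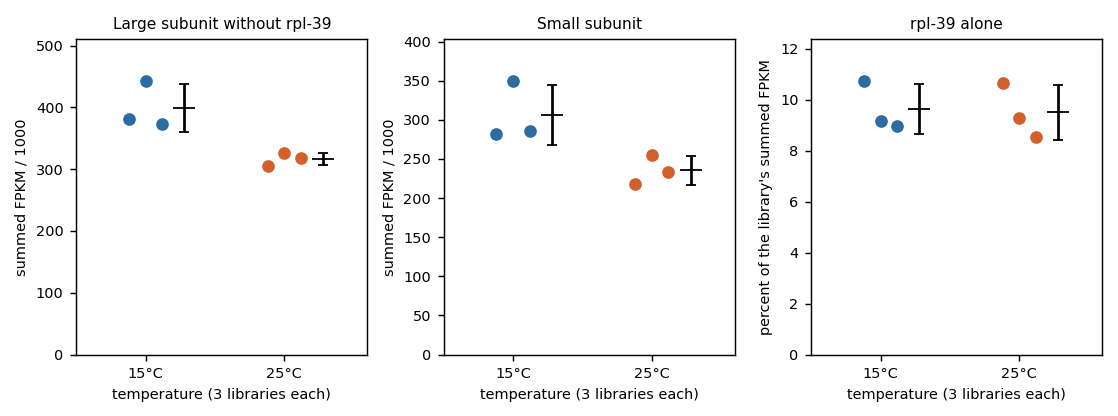
The summed FPKM (divided by 1000) of the large subunit without rpl-39 and of the small subunit, and the percent of the library's summed FPKM that rpl-39 alone made up, are shown for each library (points) with the mean and SD of 3 libraries (black), all axes from 0. Both sums are lower in every library at 25°C than in any at 15°C, as is the sum over all genes (12.3% lower in the mean). The share of rpl-39 overlaps between 15°C (8.99% to 10.8%) and 25°C (8.56% to 10.7%).

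The most abundant transcripts per length came from genes with 236 to 398 bases of exon. rpl-39 (chromosome V, 7775742 to 7776079) encodes a small protein that lines the exit tunnel and measured 336261, 304115 and 257549 FPKM in the 15°C libraries and 296056, 253332 and 228001 FPKM in the 25°C libraries. These groups overlapped, with a log2 fold change of -0.21 (SE 0.16, adjusted p = 0.342). Its exons overlap those of grl-10 on the other strand. rpl-38 (chromosome V, 15512166 to 15512737) followed with 41042, 45988 and 37959 FPKM in the 15°C libraries and 35039, 33854 and 34823 FPKM in the 25°C libraries. All of the libraries at 25°C were lower, with a log2 fold change of -0.26 (SE 0.12, adjusted p = 0.106), which did not pass the test. rps-21 (chromosome III, 7189178 to 7189631), a small-subunit protein without a bacterial counterpart, measured 34268, 38353 and 32322 FPKM in the 15°C libraries and 23794, 29156 and 25563 FPKM in the 25°C libraries. It fell without overlap, by a log2 fold change of -0.42 (SE 0.13, adjusted p = 0.036). rpl-36.A (chromosome II, 11096542 to 11097204) measured 26304, 25624 and 21725 FPKM in the 15°C libraries and 22129, 20617 and 20212 FPKM in the 25°C libraries, with overlapping groups and a log2 fold change of -0.22 (SE 0.12, adjusted p = 0.172). The order rpl-39, rpl-38, rps-21, rpl-29 and rpl-36.A holds for the means over 6 libraries, and from rpl-38 on each gene's libraries overlapped those of the next.

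At the other end, the 3 members with means under 1000 FPKM carry rpl symbols. rpl-37 and rpl-42 are members by symbol alone, and whether their products are part of the cytosolic ribosome was not tested. rpl-37 (chromosome III, 3528642 to 3528917) measured 4.70, 9.78 and 7.63 FPKM in the 15°C libraries and 1.87, 2.00 and 6.23 FPKM in the 25°C libraries. The third library at 25°C lay within the range at 15°C, and the log2 fold change of -1.15 (SE 0.45, adjusted p = 0.078) did not pass the test. RefSeq calls this gene rpl-37.2 and gives the name rpl-37.1 to W01D2.1, a row outside the rule that was named after its values were seen. W01D2.1 measured 33884, 36393 and 34773 FPKM in the 15°C libraries and 24117, 28071 and 27433 FPKM in the 25°C libraries and fell by a log2 fold change of -0.40 (SE 0.11, adjusted p = 0.026), so nearly all of the pair's signal came from it. rpl-24.2 (chromosome I, 9669415 to 9670098) measured 493, 582 and 506 FPKM in the 15°C libraries and 339, 341 and 334 FPKM in the 25°C libraries. It fell without overlap, by a log2 fold change of -0.64 (SE 0.10, adjusted p = 0.0037). rpl-42, described below, averaged 58.2 FPKM, beside a range of 47.0 to 2385 FPKM over the 50 mitochondrial ribosomal protein genes. The lowest member of the small subunit was rps-6 (chromosome I, 13952161 to 13953203), whose protein is phosphorylated by S6 kinase in yeast and mammals, with 3098, 4228 and 3624 FPKM in the 15°C libraries and 2182, 2706 and 2447 FPKM in the 25°C libraries and a fall without overlap by a log2 fold change of -0.57 (SE 0.15, adjusted p = 0.019).

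Outside rpl-37, the largest decreases were those of rpl-7A, rpl-9 and rpl-25.2 of the large subunit, followed by rps-12 of the small subunit. rpl-7A (chromosome IV, 4389143 to 4390590), which encodes a large-subunit protein that binds ribosomal RNA, measured 3815, 4986 and 4347 FPKM in the 15°C libraries and 2192, 2909 and 2461 FPKM in the 25°C libraries. No library at 25°C reached the range at 15°C, and the log2 fold change was -0.80 (SE 0.15, adjusted p = 0.0063). Its exons overlap Y24D9A.11 on the other strand. rpl-9 (chromosome III, 7572105 to 7572831), whose protein lies near the site where elongation factors dock, measured 4629, 5574 and 4797 FPKM in the 15°C libraries and 2831, 3347 and 2986 FPKM in the 25°C libraries. The groups were again apart, with a log2 fold change of -0.71 (SE 0.12, adjusted p = 0.0044). rps-12 (chromosome III, 5679298 to 5680187), a protein of the beak of the small subunit, measured 7202, 8962 and 6925 FPKM in the 15°C libraries and 4145, 5435 and 4828 FPKM in the 25°C libraries. It fell without overlap, by a log2 fold change of -0.68 (SE 0.15, adjusted p = 0.011). rpl-25.2, taken up with its copy below, completed the 5 lowest log2 fold changes of the family.

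Departure from the family was tested by subtracting the members' median log2 value in each library from every gene, so that the result does not depend on how libraries are scaled against each other. A relative change of 0 then means that a gene moved with the family median. At an adjusted p under 0.05 (limma), 10 members (13.9%) lay above the family and 3 (4.17%) below it, beside 37.5% and 6.19% of all tested genes, and the share below was near that of all genes. The 10 were 6 of the large and 4 of the small subunit, and the 3 were all of the large subunit. The 59 that did not depart, 34 of the large and 25 of the small subunit, had a median log2 fold change of -0.45, and in 54 of them the libraries at 25°C were all below those at 15°C. The number above the family was 6 without replicate 3 at 25°C. Below the family it was 1 without replicate 1 at 15°C, replicate 2 at 25°C or replicate 3 at 25°C, and 0 without any of the other 3 libraries. With no intensity trend in limma 3 lay above and 0 below.

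rpl-42, rpl-29 and rps-28 remained above the family in each of 18 alternative analyses. Among the 18, median-ratio scaling, TPM and equal sums with and without rpl-39 and hpo-18 are nearly cancelled by subtracting the family median. These scalings therefore say little about how stable a departure is, here and in the tallies below. rpl-42 (chromosome II, 11092713 to 11094022) measured 47.9, 60.6 and 41.1 FPKM in the 15°C libraries and 71.3, 67.2 and 61.1 FPKM in the 25°C libraries. This gene, a member by its symbol alone and at a low level, was the single one with every library at 25°C above those at 15°C, and its log2 fold change of 0.43 (SE 0.16, adjusted p = 0.072) did not pass the test, while its relative change of 0.89 (SE 0.17, adjusted p = 0.0039) did. Under TPM, equal sums or the length correction, or without replicate 2 at 15°C, rpl-42 also passed on its own fold change, whose adjusted p (limma) ran from 0.010 to 0.183 over all alternatives. rpl-29 (chromosome IV, 13882225 to 13882618), which codes for one of the shortest proteins of the large subunit, measured 22637, 32557 and 21913 FPKM in the 15°C libraries and 33516, 24717 and 35233 FPKM in the 25°C libraries. The second library was the highest at 15°C and the lowest at 25°C, so the groups overlapped. Its log2 fold change was 0.28 (SE 0.20, adjusted p = 0.301) and its relative change 0.75 (SE 0.18, adjusted p = 0.011). rps-28 (chromosome IV, 1659691 to 1659997), whose protein lies near the exit channel of the messenger RNA, measured 4557, 5303 and 3629.7 FPKM in the 15°C libraries and 4734, 4637 and 4954 FPKM in the 25°C libraries. The values overlapped and the log2 fold change was 0.10 (SE 0.15, adjusted p = 0.604), with a relative change of 0.57 (SE 0.12, adjusted p = 0.007). Without replicate 3 at 15°C the log2 fold change of rps-28 was -0.043.

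Most of the other members above the family overlapped between the groups. rpl-27 (chromosome I, 1834883 to 1835438), a large-subunit protein without a bacterial counterpart, measured 15007, 17382 and 14012 FPKM in the 15°C libraries and 14748, 14158 and 14199 FPKM in the 25°C libraries, with a relative change of 0.36 (SE 0.09, adjusted p = 0.015). rpl-14 (chromosome I, 9689197 to 9690081), also without one, measured 13428, 15660.0 and 13854 FPKM in the 15°C libraries and 12742, 13737 and 13209 FPKM in the 25°C libraries, with a relative change of 0.35 (SE 0.08, adjusted p = 0.0073). In both genes replicate 2 at 15°C was highest and the other libraries lay close together. The exons of rpl-14 overlap C04F12.5 on the other strand. rps-17 (chromosome I, 6220093 to 6220764), of the head of the small subunit, measured 12685, 13679 and 11057 FPKM in the 15°C libraries and 11873, 11104 and 10966 FPKM in the 25°C libraries, with a relative change of 0.33 (SE 0.11, adjusted p = 0.039). rps-15 (chromosome I, 8815572 to 8816193), of the same head, measured 11914, 14676 and 11812 FPKM in the 15°C libraries and 11319.7, 11487 and 11308 FPKM in the 25°C libraries, with a relative change of 0.30 (SE 0.08, adjusted p = 0.019). The libraries at 25°C were all below those at 15°C in rps-15 and overlapped them in rps-17. rps-23 (chromosome IV, 12390298 to 12391053), whose protein sits at the decoding centre, measured 20759.9, 21940.2 and 19271 FPKM in the 15°C libraries and 17138, 18247 and 17456 FPKM in the 25°C libraries, without overlap, and its relative change was 0.23 (SE 0.08, adjusted p = 0.0499). The calls of rps-17 and rps-23 were the least stable of the 10, kept in 11 and 9 of 18 alternatives.

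Of the members below the family, rpl-7A had a relative change of -0.34 (SE 0.09, adjusted p = 0.021), rpl-9 of -0.25 (SE 0.08, adjusted p = 0.037) and rpl-25.2 of -0.24 (SE 0.08, adjusted p = 0.0465). These calls were kept in 13, 10 and 10 of the 18 alternatives. rps-29 (chromosome III, 794300 to 795031), a zinc-binding protein of the small subunit's head, varied widely between libraries, with 6733, 17745 and 7235 FPKM in the 15°C libraries and 8382, 13674 and 10154 FPKM in the 25°C libraries. Replicate 2 was the highest in both groups, and neither the log2 fold change of 0.14 (SE 0.38, adjusted p = 0.784) nor the relative change of 0.61 (SE 0.27, adjusted p = 0.098) passed the test. Its log2 fold change lay below 0 when replicate 1 or 3 at 15°C or replicate 2 at 25°C was left out.

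In 2 of the 3 pairs of members whose symbols share a number, the copies' shares of the pair did not overlap between the temperatures. rpl-11 encodes a protein that binds the 5S RNA together with the product of rpl-5. rpl-11.1 (chromosome V, 3585312 to 3586064) measured 6522, 7193 and 6115 FPKM in the 15°C libraries and 4822, 5112 and 5073 FPKM in the 25°C libraries. It fell without overlap, by a log2 fold change of -0.40 (SE 0.10, adjusted p = 0.02). Its copy rpl-11.2 (chromosome X, 2241738 to 2242618) measured 3192, 3648 and 2966 FPKM in the 15°C libraries and 3035, 3305 and 3097 FPKM in the 25°C libraries. These groups overlapped, with a log2 fold change of -0.05 (SE 0.11, adjusted p = 0.740) and a relative change of 0.41 (SE 0.09, adjusted p = 0.0073). The percent of the pair's summed FPKM that came from rpl-11.2 was 32.9, 33.6 and 32.7 at 15°C and 38.6, 39.3 and 37.9 at 25°C. It was higher in 3 of 3 libraries, at 33.1% ± 0.523 against 38.6% ± 0.681 (SD, n = 3; exact two-sided permutation test, p = 0.1, adjusted p = 0.2 over 4 pairs).

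The rpl-25 genes, named rpl-23A in RefSeq, encode a protein beside the end of the exit tunnel. rpl-25.2 (chromosome I, 8329062 to 8329647) measured 6412, 7948 and 6519 FPKM in the 15°C libraries and 3639.7, 4816 and 4401 FPKM in the 25°C libraries. It fell without overlap, by a log2 fold change of -0.70 (SE 0.14, adjusted p = 0.0091). Its copy rpl-25.1 (chromosome X, 4715178 to 4715796) measured 1758, 2377 and 1926 FPKM in the 15°C libraries and 1789, 1982 and 2039.7 FPKM in the 25°C libraries. Here the groups overlapped, with a log2 fold change of -0.05 (SE 0.14, adjusted p = 0.783) and a relative change of 0.41 (SE 0.10, adjusted p = 0.011), so that the copies passed the test relative to the family in opposite directions. rpl-25.1 made up 21.5%, 23.0% and 22.8% of the pair at 15°C and 33.0%, 29.2% and 31.7% at 25°C. The means were 22.4% ± 0.815 and 31.3% ± 1.93 (SD, n = 3; exact two-sided permutation test, p = 0.1, adjusted p = 0.2 over 4 pairs), with no overlap. With 3 libraries against 3 this test cannot go below 0.1.

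**Figure D4:**
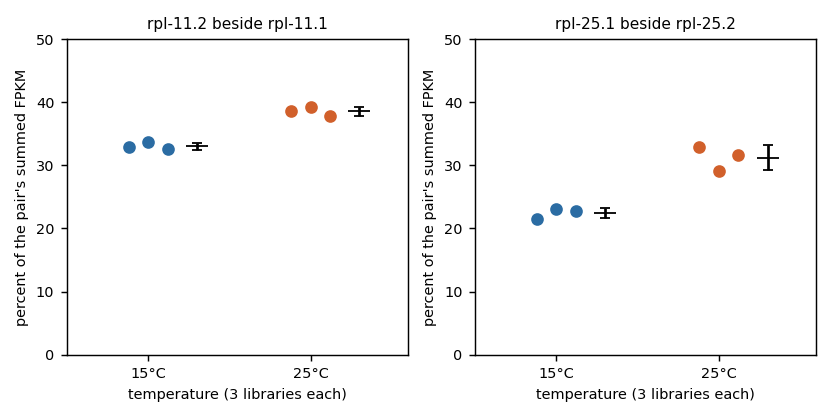
The percent of the summed FPKM of a gene pair that came from rpl-11.2 (left, beside rpl-11.1) and from rpl-25.1 (right, beside rpl-25.2) is shown for each library (points) with the mean and SD of 3 libraries (black), on axes from 0 to 50 percent. Both shares are higher in every library at 25°C than in any at 15°C, with means of 33.1% and 38.6% for rpl-11.2 and of 22.4% and 31.3% for rpl-25.1.

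In the third pair, rpl-24.1 (chromosome I, 4585115 to 4586176) encodes the ribosomal protein and measured 5897, 7558 and 6063 FPKM in the 15°C libraries and 4335, 5251 and 4737 FPKM in the 25°C libraries, a fall without overlap by a log2 fold change of -0.44 (SE 0.14, adjusted p = 0.037). The share of rpl-24.2 in this pair was 7.53% ± 0.323 at 15°C and 6.65% ± 0.579 at 25°C (SD, n = 3; exact two-sided permutation test, p = 0.2, adjusted p = 0.267 over 4 pairs), with overlapping groups. The fourth pair tested was rpl-37 beside W01D2.1, where rpl-37 made up 0.0209% ± 0.0066 and 0.0125% ± 0.0088 (SD, n = 3; exact two-sided permutation test, p = 0.3). How the counting shared reads between such copies is not given in the sources used here, so the split within a pair is uncertain.

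rpl-11.2 and rpl-25.1 were the 2 members on the X chromosome, both with a log2 fold change of -0.05 and both above the family. The 70 autosomal members had a median of -0.45, and 46 of them fell. Among all tested genes placed on a chromosome, the median log2 fold change was 0.17 over 1765 genes on X and -0.07 over 10087 on autosomes. Relative to the family, the median change of these genes was 0.63 on X and 0.39 on autosomes. By the same test, 785 of those on X and 3693 of those on autosomes lay above the family. On the autosomes, the members' medians ran from -0.50 on chromosome III, where 15 of 18 fell, to -0.38 on chromosome II, where 5 of 10 fell.

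The decrease was larger in longer genes. Over the 72 genes, Spearman's correlation between log2 fold change and exonic length was -0.46, and -0.56 without the 3 members under 1000 FPKM, given as a description since all points share the same 6 libraries. Over 11852 tested genes with a length it was -0.10. Over 250 other genes that averaged 1000 FPKM or more and were no longer than the longest member it was -0.17. In 4 equal groups of 18 members by exonic length, the median log2 fold change was -0.30 (236 to 448 bases), -0.37 (450 to 513 bases), -0.47 (530 to 705 bases) and -0.56 (706 to 1456 bases). In these groups 6, 10, 15 and 15 members fell. Spearman's correlation of log2 fold change with mean FPKM was 0.50, and the parts of level and length were not told apart. A lowess correction for exonic length in each library, fitted over all genes, left 45 members falling and the family median at -0.44, and gave 12 members above and 7 below the family. This correction follows the length trend of all genes, so a steeper trend within the family can remain. The family's correlation with length after the correction is not given here.

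**Figure D5:**
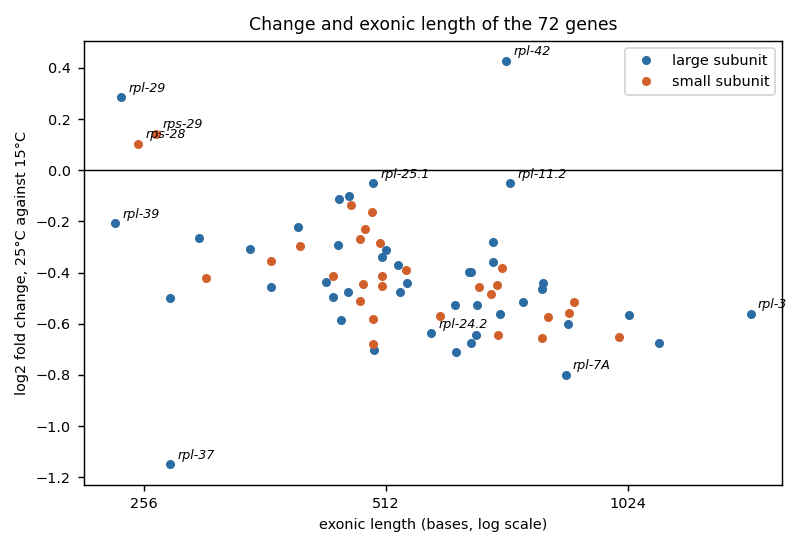
Each point is a ribosomal protein gene, with its exonic length in bases (log scale) on the horizontal and its log2 fold change at 25°C against 15°C on the vertical axis, blue for the large and orange for the small subunit. The short genes rpl-29, rps-28 and rps-29 lie above 0, rpl-42, rpl-11.2 and rpl-25.1 lie above genes of like length, and rpl-37 lies lowest at -1.15.

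Of the 6 listed parts of the ribosome that carry other symbols, 4 fell and 0 rose, beside 21.3% and 18.2% of all tested genes. Their median log2 fold change was -0.41. In all 6 every library at 25°C was below those at 15°C, which held for 28.7% of all tested genes. At an unadjusted p under 0.05 (limma) 5 were lower and 0 higher. rack-1, a scaffold on the head of the small subunit, measured 4451, 5769 and 5087 FPKM in the 15°C libraries and 2840.4, 3878 and 3155 FPKM in the 25°C libraries, a log2 fold change of -0.64 (SE 0.15, adjusted p = 0.016). ubl-1, a ubiquitin-like protein fused to a small-subunit protein, measured 4350.4, 5152 and 4594 FPKM in the 15°C libraries and 2684, 3481 and 3009 FPKM in the 25°C libraries, a log2 fold change of -0.62 (SE 0.13, adjusted p = 0.0093). ubq-2, ubiquitin fused to a large-subunit protein, measured 14271, 17164 and 13889 FPKM in the 15°C libraries and 10658, 12425 and 11096 FPKM in the 25°C libraries, a log2 fold change of -0.40 (SE 0.13, adjusted p = 0.039). Of the stalk, which binds the translation factors, rla-1 fell by a log2 fold change of -0.41 (SE 0.13, adjusted p = 0.0459), while rla-0 at -0.30 (SE 0.12, adjusted p = 0.084) and rla-2 at -0.27 (SE 0.12, adjusted p = 0.112) did not pass. C37A2.7, named rplp-2.1 in RefSeq, was on neither list and was named after its values were seen. It measured 20789, 22382 and 20849 FPKM in the 15°C libraries and 14549, 17566 and 16552 FPKM in the 25°C libraries, without overlap, and fell by a log2 fold change of -0.40 (SE 0.11, adjusted p = 0.029).

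Other genes of translation were compared from the same limma fit, on the deposited scale. At an adjusted p under 0.05, 21.3% of all tested genes fell and 18.2% rose. At an unadjusted p under 0.05 these shares were 26.9% and 22.9%. Of 50 mitochondrial ribosomal protein genes 7 fell (14%) and 1 rose (2%), both under the shares of all tested genes, with a median log2 fold change of -0.08. The largest fall was that of mrps-35, -0.67 (SE 0.11, adjusted p = 0.0043), and mrps-14 rose by 0.30 (SE 0.09, adjusted p = 0.041). All 6 elongation factor genes passed, 5 lower and 1 higher, with a median of -0.66. eef-1B.2, which belongs to the exchange factor of elongation factor 1, had a log2 fold change of -0.86 (SE 0.12, adjusted p = 0.0019). eef-1A.2, on chromosome X, brings aminoacyl-tRNA to the ribosome and rose by 0.48 (SE 0.11, adjusted p = 0.014). Of 24 initiation factor genes 10 fell and 0 rose (median -0.36), the largest being ife-3, which binds the messenger RNA cap, with -1.15 (SE 0.18, adjusted p = 0.0034). At an unadjusted p under 0.05 the initiation factors were 12 lower and 2 higher (ife-2 and ife-4), with eif-6 counted here and under ribosome biogenesis. Of 19 tested genes of ribosome biogenesis 10 fell and 0 rose (median -0.51), led by lpd-6 with -1.11 (SE 0.20, adjusted p = 0.0062), and 12 were lower and 0 higher at an unadjusted p under 0.05. Of 8 nascent chain factors and regulators 3 fell and 0 rose (median -0.39), with the largest fall in daf-16, a FOXO transcription factor, at -0.76 (SE 0.15, adjusted p = 0.0077), and at an unadjusted p under 0.05 the list had 4 lower and 1 higher (pha-4). Among 288 other genes that averaged 1000 FPKM or more, a comparison chosen after seeing the data, 91 fell (31.6%) and 31 rose, with a median of -0.23.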

How the data were processed

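Expression was measured by paired-end sequencing of stranded mRNA libraries from whole worms, 3 libraries at 15°C and 3 at 25°C, grouped by the sample records. Per the study's methods and the submitters' processing notes, reads were aligned to WBcel235 with TopHat2 2.0.6 and quantified with Cufflinks. Its version and strand setting are not stated in the paper or labels. The authors deposited 1 FPKM value per gene and library. Cufflinks divides by an effective transcript length, so the FPKM of transcripts near the fragment length depend on the fragment lengths estimated for each library. Depth is unknown, since the values follow no steps of whole reads (the smallest above 0 is 9.81e-258), and precision rests on the spread between 3 libraries.

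Values were analyzed without further scaling as log2(FPKM + 0.5) for the 12996 rows that averaged 1 FPKM or more. limma 3.58.1 in R 4.3.3 was fitted to all 6 libraries with an intensity trend and temperature as the only term, two-sided, with Benjamini-Hochberg adjustment over all tested genes. Genes were called at the study's thresholds (log2 fold change beyond 1, adjusted p under 0.01) and at an adjusted p under 0.05. The fit was repeated after subtracting the members' median in each library. Copies were compared by their share in the pair with an exact permutation test of the log2 ratio. The fit was tested on simulated data. Tables and plots were made in Python 3.11.15 with pandas 2.3.3, numpy 2.4.6, scipy 1.17.1 and matplotlib 3.10.9.

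Members were named by a rule: the 5 highest and 5 lowest in mean FPKM and in log2 fold change, members departing from the family, copies that share a number, other parts of the ribosome, the called gene that changed most in either direction in every comparison list, and genes with over 5% of a library's sum. The members and lists were chosen with earlier results of these data known. Of the symbols listed for ribosome biogenesis 14 and for regulators 2 were not matched and were not analysed here. Alternatives were pseudocounts of 0.1 and 1, no filter or a mean of 5 FPKM, median-ratio scaling, TPM, equal sums (with and without rpl-39 and hpo-18), a lowess length correction (span 0.3), no trend, treat, the family mean as centre, a replicate block and each library left out. Exons of 12 members overlap another gene, 3 on the same and 9 on the opposite strand, and without a stated strand setting reads of such genes cannot be told apart.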

Additional observations from a re-analysis of the deposited data

How the results depend on the processing

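Under equal sums and under TPM the members lower at 25°C numbered 20 and the members higher 1, with medians of -0.26 for all members, -0.27 for the large and -0.26 for the small subunit. With equal sums computed without rpl-39 and hpo-18 these were 29, 1, -0.27, -0.27 and -0.26. In these scalings the log2 fold changes of rpl-11.2 (0.14), rpl-14 (0.075), rpl-25.1 (0.13), rpl-27 (0.086), rps-15 (0.023) and rps-17 (0.050) were above 0, and without rpl-39 and hpo-18 in the sums they were 0.13, 0.070, 0.13, 0.081, 0.018 and 0.045. The length correction gave 1 member higher (rpl-42). Members below the family numbered 7 under the length correction and with the family mean as centre, 1 with no filter and 0 with no trend, where 3 lay above. The causes of these differences were not tested.

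With 1 library left out, the members lower numbered 12 to 40, those higher 0 to 1, those above the family 6 to 11 and those below 0 to 1, and the share difference ran from -2.95 to -2.15 percentage points. The medians ran from -0.51 to -0.34 for all members, -0.52 to -0.34 for the large and -0.51 to -0.34 for the small subunit. Named members' ranges were -0.12 to 0.031 for rpl-11.2, -0.15 to 0.072 for rpl-25.1, -0.043 to 0.23 for rps-28 and -0.11 to 0.59 for rps-29. rps-29 then changed sign without replicate 1 (-0.11) or 3 (-0.056) at 15°C or replicate 2 at 25°C (-0.046), rpl-11.2 (0.031) and rpl-25.1 (0.072) without replicate 2 at 15°C, rpl-25.1 (0.0047) without replicate 1 at 25°C, and rps-28 (-0.043) without replicate 3 at 15°C.

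Whether the replicate numbers pair the libraries is not known. Over all tested genes, the deviations of same-numbered libraries from their group means correlated at -0.03, -0.10 and -0.05. Among the members, replicate 2 was the highest of its group in 67 at 15°C and in 58 at 25°C. Replicate 1 was the lowest of its group in 45 at 15°C and in 60 at 25°C. With the number as a replicate block, 6 members lay below the family, 14 above and 56 were lower, and rpl-39 passed at a log2 fold change of -0.21 (adjusted p = 0.049 by limma), where its adjusted p was 0.207 to 0.906 in the other alternatives. Of all tested genes, 904 were higher and 726 lower at the study's thresholds, beside 597 and 406 with the block, 137 and 26 with treat, and 422, 444 and 395 lower under equal sums, equal sums without both genes, and TPM. At an adjusted p under 0.05, 2774 were lower, beside 1595, 1702 and 1613 under these scalings. Leaving out a library gave 320 to 826 lower and 561 to 855 higher at the study's thresholds, and 1676 to 2639 lower and 1554 to 2390 higher at an adjusted p under 0.05. No member reached the study's thresholds in any alternative. Unknown depth and 3 libraries a group limit how small a change in the low members rpl-37, rpl-42 and rpl-24.2 could be told from spread.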

Other observations

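Beside rpl-11.2 and rpl-25.1, genes of translation on the X chromosome that were noticed after their values were seen include ife-2 and ife-4, which code for cap-binding proteins. ife-2 measured 78.3, 87.7 and 86.5 FPKM in the 15°C libraries and 97.5, 108 and 107 FPKM in the 25°C libraries, a log2 fold change of 0.31 (SE 0.11, adjusted p = 0.055) by limma. ife-4 measured 18.4, 15.4 and 12.8 FPKM in the 15°C libraries and 26.8, 19.9 and 19.3 FPKM in the 25°C libraries, a log2 fold change of 0.49 (SE 0.19, adjusted p = 0.08) by limma. In both genes every library at 25°C was above every library at 15°C, and neither passed an adjusted p of 0.05. The same lack of overlap in this direction was seen in 25.9% of all tested genes and in 577 of 1765 tested genes on X.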
